A study of Mus musculus with 9 samples.

Results

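Genes that mark adventitial fibroblasts of the lung (Pi16, Dpp4, Cd34, Clec3b, Dpep1 and Serpinf1) and gelsolin (Gsn) were followed in lung fibroblasts of mice treated with doxorubicin or vehicle. The 7 genes were taken by name from the 55302 gene symbols of each deposited table, and all 7 had at least 1 read. Of the 7 members, 5 (Gsn, Pi16, Serpinf1, Dpep1 and Clec3b) reached a normalized count of 10 in at least 4 libraries and were tested, and Cd34 and Dpp4 did not.

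Fibroblasts were sorted from lungs at an early stage of breast cancer metastasis, and bulk RNA was sequenced from 5 mice given the anthracycline doxorubicin (DOX), which damages DNA, and from 4 given vehicle (PBS, also called saline in the labels). The study's methods describe female mice, 8 weeks old at injection of 4T1 cells (BALB/c mice) or EO771 cells (C57BL/6 mice) into the mammary fat pad, and the sources used here do not tie the 9 libraries to either strain. In all mice of this model the primary tumor was resected 2 weeks after injection. The first of 2 doses (5 mg/kg of doxorubicin in the DOX group) followed 4 days later, the second after another 5 days, with lungs collected 24 h after the second dose. The sorted gate was CD45- EpCAM- PDGFRa+, to which the methods add CD31-. The gate takes all PDGFRa+ fibroblasts together, so that adventitial fibroblasts were not separated from other fibroblasts. The labels number the libraries of a group as biological replicates.

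Adventitial fibroblasts lie in the outer coat of larger vessels and airways, whereas alveolar fibroblasts line the gas-exchanging tissue. The adventitial population is known for Pi16 and Dpp4 on fibroblasts of many tissues, and has been described as progenitor-like. Gelsolin severs and caps actin filaments when calcium rises, and a secreted form clears actin from blood plasma.

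Libraries were prepared by MARS-seq, a method whose tags come from close to the 3′ ends of polyadenylated RNAs. The deposited value, called a normalized count here, is the number of reads of a gene divided by a size factor of its library. Recovered reads numbered 432322 to 1285816 in the DOX libraries and 497637 to 734114 in the PBS libraries. The strand setting of the read count is not given in the sources used here, so that a value may leave out reads of a gene's own transcripts. Markers of blood and epithelial cells stood apart in PBS replicate 4. Over 14 granulocyte genes the summed normalized count was 67.7 to 97.1 in DOX libraries and 28.0 to 40.4 in PBS replicates 1 to 3. It was 1192 in PBS replicate 4. Much of the granulocyte sum was Ly6g alone, except in PBS replicate 4. Ly6g stood at 49.7 to 84.4 in DOX libraries, at most 30.6 in PBS replicates 1 to 3 and 81.8 in PBS replicate 4. The sum over 12 epithelial genes was 48.3 to 178 in DOX libraries, 16.9 to 37.9 in PBS replicates 1 to 3 and 484 in PBS replicate 4, with Lamp3 at 0 throughout. General fibroblast markers were present in every library, with a sum over 12 genes of 1882 to 2448 in DOX libraries, 2734 to 3260 in PBS replicates 1 to 3 and 1393 in PBS replicate 4. Most of each sum was Col1a1 alone, at 1169 to 1785 in DOX libraries, 1888 to 2333 in PBS replicates 1 to 3 and 1027 in PBS replicate 4. The comparisons of the members are therefore given with and without PBS replicate 4. Leaving it out does not make the groups alike: in each of these sums every DOX library lay outside the range of PBS replicates 1 to 3. The part of this difference in the member values was not tested. In such bulk samples fewer cells of a type and less RNA per cell cannot be told apart.

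Gelsolin is made in an intracellular and a secreted form from the same gene (chromosome 2, 35256380 to 35307892 on the plus strand of mm10). The secreted form starts at a promoter of its own and carries a signal peptide ahead of the sequence that both forms share. The start of its coding sequence is shown because it is the part by which the 2 forms differ. In the annotated transcript Gsn-201 (GENCODE M21, 780 residues) 147 coding bases precede the start codon of Gsn-205 (731 residues), and in the sequence below capitals mark the start codon of each form.
Gsn-201: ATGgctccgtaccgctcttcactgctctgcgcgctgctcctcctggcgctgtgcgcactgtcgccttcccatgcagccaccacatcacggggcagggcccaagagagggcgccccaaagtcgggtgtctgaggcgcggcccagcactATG
From the end of the transcripts backwards, the 2 forms share 2430 bases. Tags near the 3′ end therefore do not tell the 2 forms apart, and the Gsn values below do not separate them.

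None of the 5 tested members passed the test between DOX and PBS (limma on the log2 of the normalized count plus 1, Benjamini-Hochberg adjusted p of at most 0.05), and neither did any of the 2604 genes tested (0%). At an unadjusted p under 0.05, limma gave 162 genes, edgeR 148 and DESeq2, which was run on 17172 genes, 463. Gsn was the only member among the limma genes, on the higher side, where 3.03% of all tested genes stood (3.19% on the lower side). Without PBS replicate 4 no member passed this unadjusted threshold, against 4.61% of tested genes on the higher and 3.23% on the lower side. With no filter on low counts limma called 3 of 17428 genes (0.0172%), none of them a member. Of the 5 tested members 4 were fitted higher in DOX, against 49.4% of all tested genes, and without PBS replicate 4 it was 2 of the 5, against 50.7%. The median log2 fold change of the 5 was 0.19 with all libraries and -0.019 without PBS replicate 4, and over all tested genes it was -0.0092 and 0.0083.

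Gsn had normalized counts of 635, 821, 647, 1070 and 568 in DOX replicates 1 to 5, against 466, 509, 627 and 341 in PBS replicates 1 to 4. In DOX, 4 of 5 libraries lay above every PBS library, and the remaining one, DOX replicate 5, lay below PBS replicate 3. The groups therefore overlapped, as they did for nearly all genes: every DOX library was above every PBS library for 1.27% of tested genes and below for 1.38%. Without PBS replicate 4 these shares were 3.38% and 3.07%, and the Gsn values still overlapped. The share of tested genes with 4 of 5 DOX libraries above every PBS library was not counted. Gsn averaged 748 ± 203 in DOX (SD, n = 5) and 486 ± 118 in PBS (SD, n = 4), a ratio of means of 1.54. The fitted log2 fold change was 0.62 (95% confidence interval 0.10 to 1.13, SE 0.24), with a limma p of 0.0223 before and 0.761 after adjustment over all tested genes. A fold change of this size or larger toward DOX was fitted for 16.3% of tested genes. An exact two-sided permutation test of Gsn alone, over all 126 ways to assign the group labels, gave p = 0.0397, where the smallest p it allows is 0.0159.

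PBS replicate 4, the library with the high granulocyte and epithelial sums, held the lowest Gsn value of all 9 libraries, as it did for 13.3% of tested genes. Without it the mean of Gsn was 748 ± 203 in DOX and 534 ± 83.8 in PBS (n = 3), and the log2 fold change fell to 0.46 (95% confidence interval -0.053 to 0.97, limma p of 0.0756 before and 0.663 after adjustment). The exact permutation test then gave p = 0.107. Among the libraries left out in turn, the fold change of Gsn stayed between 0.46 and 0.75, and its limma p before adjustment was also above 0.05 without DOX replicate 4, at 0.0633. Counting error was small beside the spread between libraries, in which mice, sorting and library preparation cannot be told apart. The coefficient of variation of Gsn was 27.1% between DOX libraries and 24.3% between PBS libraries, where counting alone would give 3.71% and 4.61%.

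**Figure D1:**
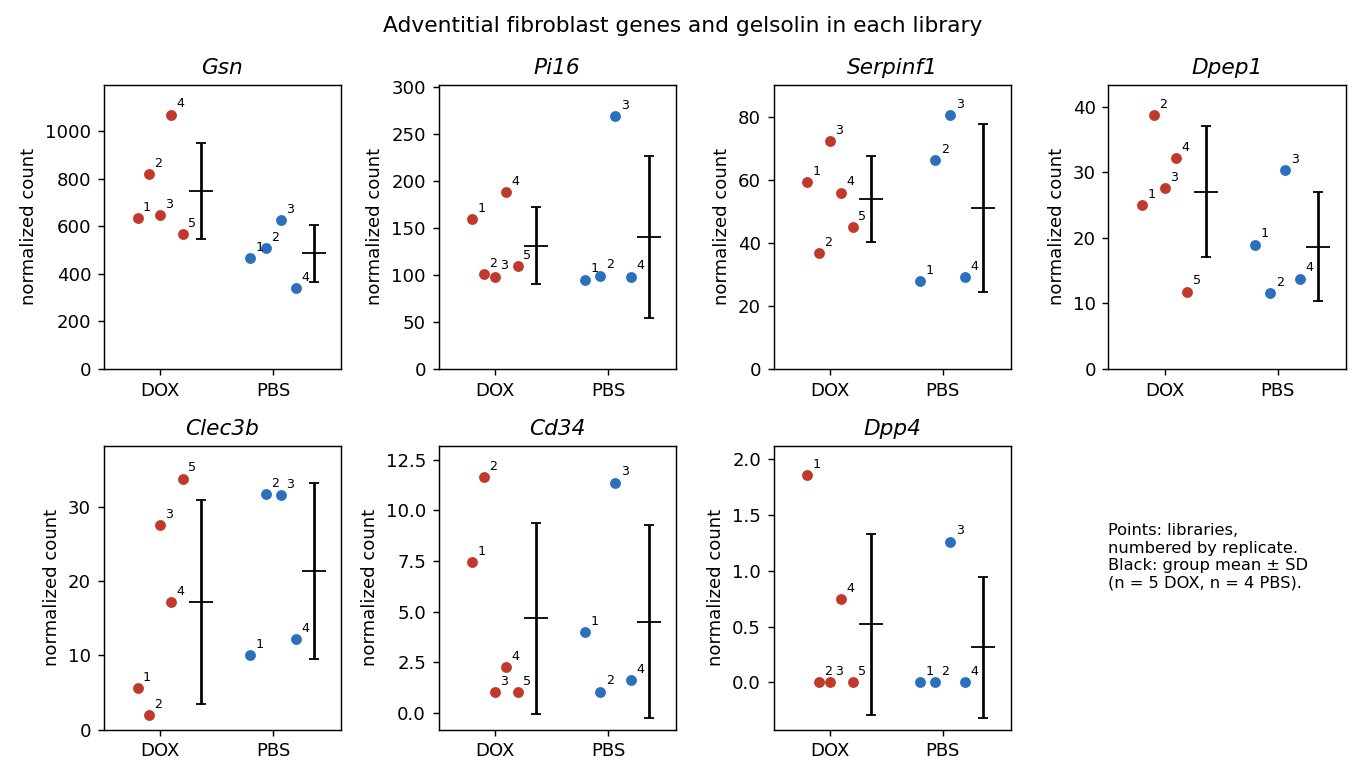
Normalized count (linear vertical axis) of each of the 7 genes in every library, DOX left and PBS right. Points are libraries numbered by replicate, and black bars are the group mean ± SD. Gsn is above the highest PBS library in 4 of 5 DOX libraries, and PBS replicate 3 stands at 269 for Pi16 with the other PBS libraries at 94.9 to 99.2.

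Pi16 encodes peptidase inhibitor 16, a cell surface protein of the CAP superfamily (chromosome 17, 29317680 to 29330593, plus strand of mm10). Its normalized counts were 160, 101, 98.1, 188 and 109 in DOX replicates 1 to 5, against 94.9, 99.2, 269 and 98.0 in PBS replicates 1 to 4. In PBS, 3 libraries lay close together and replicate 3 was the highest of all 9 libraries, as it was for 9.98% of tested genes. Pi16 averaged 131 ± 40.6 in DOX and 140 ± 85.7 in PBS (SD, n = 5 and n = 4). The log2 fold change was 0.010 (95% confidence interval -0.73 to 0.75, limma adjusted p = 0.995), so that the fitted value and the ratio of the means, 0.935, lie on opposite sides of no change. It was -0.11 without PBS replicate 4 (interval -0.90 to 0.68) and 0.37 without PBS replicate 3. An antisense gene, AC162182.1, overlaps Pi16 and is not among the gene symbols of the deposited tables, so that it has no value here.

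Serpinf1 encodes pigment epithelium-derived factor, a secreted serpin without protease inhibitor activity that restrains vessel growth (chromosome 11, 75409769 to 75422701, minus strand of mm10). It had 59.4, 36.8, 72.5, 56.0 and 45.1 normalized counts in DOX replicates 1 to 5, against 28.0, 66.5, 80.8 and 29.2 in PBS replicates 1 to 4. The DOX libraries all lay within the range of the PBS libraries, which fell into a low pair (replicates 1 and 4) and a high pair (replicates 2 and 3). The means were 54.0 ± 13.7 in DOX and 51.1 ± 26.7 in PBS, with a log2 fold change of 0.19 (interval -0.66 to 1.04, limma adjusted p = 0.977). The value was -0.019 without PBS replicate 4, -0.039 without PBS replicate 1 and 0.46 without PBS replicate 3.

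Dpep1 encodes membrane dipeptidase, a surface enzyme that cleaves leukotrienes and that has been described as a neutrophil adhesion receptor of lung vessels (chromosome 8, 123186242 to 123201812, plus strand of mm10). Normalized counts were 25.1, 38.7, 27.6, 32.1 and 11.8 in DOX replicates 1 to 5, against 19.0, 11.6, 30.3 and 13.8 in PBS replicates 1 to 4. DOX replicate 5 was as low as the lower PBS libraries, and PBS replicate 3 was within the DOX range. Dpep1 averaged 27.0 ± 9.99 in DOX and 18.7 ± 8.35 in PBS, with a log2 fold change of 0.51 (interval -0.54 to 1.55, limma adjusted p = 0.890). Without PBS replicate 4 it was 0.40, and its direction was the same with each other library left out, from 0.32 to 0.77. These values rest on 11 to 43 reads per library.

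Clec3b encodes tetranectin, a secreted lectin that binds plasminogen (chromosome 9, 123150946 to 123157432, plus strand of mm10). It had 5.57, 1.94, 27.6, 17.2 and 33.8 normalized counts in DOX replicates 1 to 5, against 9.99, 31.7, 31.6 and 12.2 in PBS replicates 1 to 4. DOX held both the 2 lowest libraries and the highest one. The value of DOX replicate 2 was a single read. Clec3b averaged 17.2 ± 13.7 in DOX and 21.3 ± 11.9 in PBS, with a log2 fold change of -0.63 (interval -2.21 to 0.96, limma adjusted p = 0.917). It was -0.82 without PBS replicate 4 and -0.093 without DOX replicate 2. On recovered reads it was -0.29 with edgeR, -0.27 with DESeq2 and -0.081 with limma-voom.

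Cd34, a sialomucin of the surface of progenitor and endothelial cells and of some fibroblasts (chromosome 1, 194938819 to 194961279, plus strand of mm10), had 36 reads in all. Its normalized counts were 7.42, 11.6, 1.02, 2.24 and 1.02 in DOX replicates 1 to 5, against 4.00, 1.06, 11.4 and 1.62 in PBS replicates 1 to 4. The groups overlapped throughout, with means of 4.66 ± 4.70 in DOX and 4.51 ± 4.74 in PBS. The PBS mean without replicate 4 was 5.47 ± 5.31, above the DOX mean. The antisense gene Gm16897 lies across the 3′ part of Cd34 on the minus strand and shares 148 exon bases with it, none of them at its 3′ end. It had 579 reads, with 53.1 ± 21.3 normalized counts in DOX and 64.2 ± 16.5 in PBS (log2 fold change -0.32, limma adjusted p = 0.908). With the strand setting unknown, reads of Cd34 and of Gm16897 in the shared bases cannot be told apart.

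Dpp4 encodes the surface peptidase dipeptidyl peptidase 4 (chromosome 2, 62330073 to 62412231, minus strand of mm10). It had 4 reads in all, 2 in DOX replicate 1, 1 in DOX replicate 4 and 1 in PBS replicate 3, which made normalized counts of 1.86, 0.747 and 1.26. Means were 0.521 ± 0.814 in DOX and 0.316 ± 0.631 in PBS, or 0.421 ± 0.729 in PBS without replicate 4. In each of the other 6 libraries the count was 0, which allows up to 3 reads, or a normalized count of 1.54 to 5.81 depending on the library. The antisense gene Gm13561, which overlaps Dpp4, had 1 read. A difference between DOX and PBS in Dpp4 was not detectable at this depth.

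**Figure D2:**
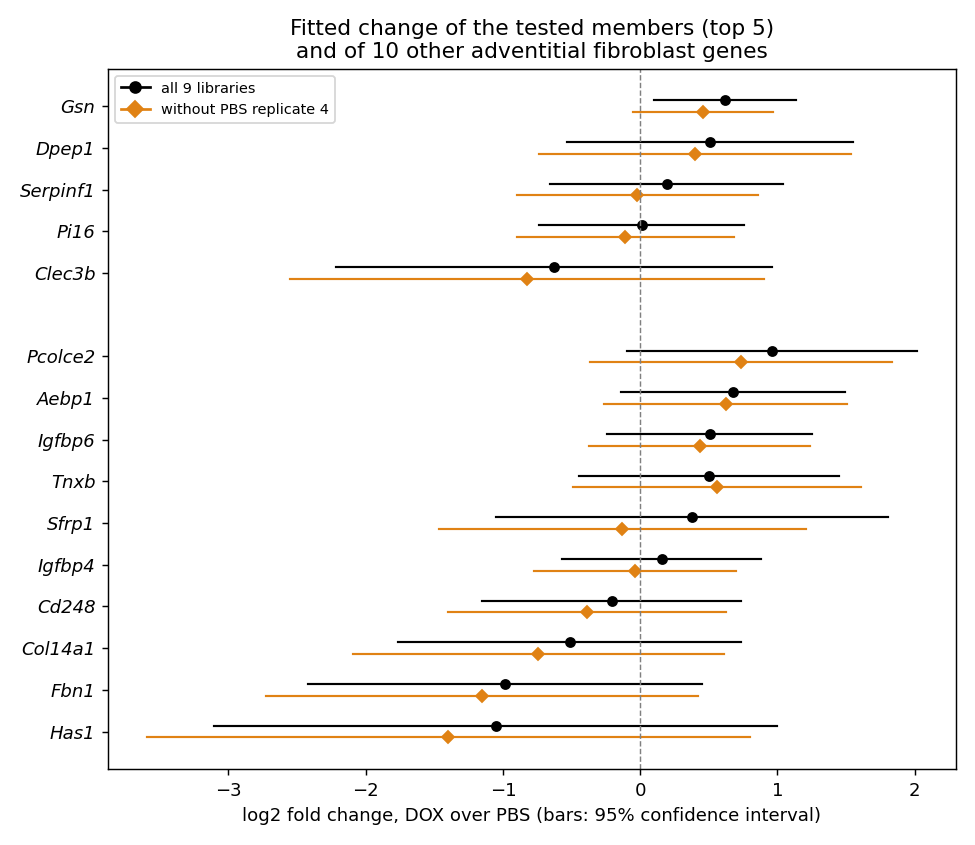
Fitted log2 fold change of DOX over PBS (horizontal axis) with its 95% confidence interval for the 5 tested members (top) and for 10 other genes of adventitial fibroblasts (bottom). Circles are fits to all 9 libraries and diamonds leave out PBS replicate 4. The interval of Gsn, 0.10 to 1.13, lies above 0 with all libraries and reaches -0.053 without PBS replicate 4, and those of the other genes include 0 in both.

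The members were also set beside each other library by library. PBS replicate 3 was the highest PBS library for 6 of the 7 members, all except Clec3b, where PBS replicates 2 and 3 stood at 31.7 and 31.6. Among tested genes this held for 4 of 5 members and for 23.7% of all 2604 genes, the members being read in the same libraries and so not separate observations. The sum over 22 other adventitial fibroblast genes was also highest there among the PBS libraries. It was 641, 432, 443, 657 and 414 in DOX replicates 1 to 5, against 387, 462, 669 and 292 in PBS replicates 1 to 4. Of those genes, 5 of the 10 tested were highest of the PBS libraries in PBS replicate 3. The alveolar sum was also highest there among the PBS libraries, at 427 against 425, 358 and 261 in PBS replicates 1, 2 and 4. The general fibroblast sum in PBS replicate 3, 2734, was below those of PBS replicates 1 and 2 (2835 and 3260). PBS replicate 3 was the highest PBS library for 2 of 3 tested alveolar genes and 4 of 10 tested general fibroblast genes. The sum over 10 mesothelial genes was 0 to 7.47 in DOX libraries, 13.9 in PBS replicate 3 and 2.00 to 6.48 in the other PBS libraries, with 4 of the 10 genes (Upk3b, Lrrn4, Muc16 and Upk1b) at 0 throughout. The part of these markers in the member values was not tested.

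**Figure D3:**
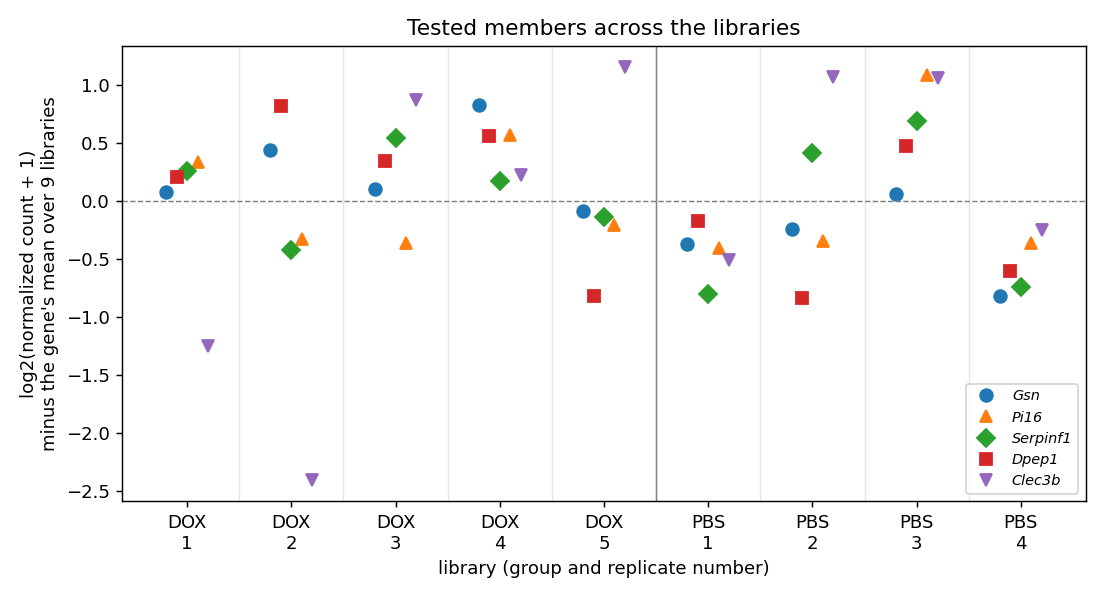
Each tested member's log2(normalized count + 1) minus its own mean over the 9 libraries (vertical axis), by library (horizontal axis), DOX left and PBS right. In PBS replicate 3 all 5 members lie above their means, in PBS replicate 4 all 5 lie below, and the lowest point is Clec3b in DOX replicate 2.

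Among the 5 tested members, Gsn and Dpep1 varied most alike over the 9 libraries (Pearson's r of 0.74 and Spearman's rho of 0.80 on the log2 scale), and Clec3b and Dpep1 most unlike (-0.47 and -0.52). These values are descriptions over libraries that share their size factors and group labels, with no test.

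Outside the members, the gene most like Pi16 among 2599 tested genes was Igfbp4, which encodes an IGF-binding protein and was itself listed among the adventitial genes. Igfbp4 had 255, 126, 172, 304 and 168 normalized counts in DOX replicates 1 to 5, against 133, 182, 331 and 117 in PBS replicates 1 to 4. The libraries high in Igfbp4 (DOX replicates 1 and 4 and PBS replicate 3) were those high in Pi16. The r over 9 libraries was 0.91 (rho 0.78), and 0.81 without the 2 libraries farthest from the median of Igfbp4. Its own log2 fold change was 0.16 (limma adjusted p = 0.977), and -0.037 without PBS replicate 4.

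The gene most like Dpep1 was Chmp1a, a subunit of the ESCRT membrane-scission machinery. Chmp1a lies on chromosome 8 at 123204264 to 123212763 on the minus strand of mm10, so that the 2 genes point at each other with 2451 bases between their ends. It had 71.5, 79.4, 62.3, 88.1 and 10.8 normalized counts in DOX replicates 1 to 5, against 40.0, 10.6, 70.7 and 29.2 in PBS replicates 1 to 4. DOX replicate 5 and PBS replicate 2 were the 2 lowest libraries for both genes. The r was 0.94 (rho 0.93), and 0.95 without the 2 libraries farthest from the median of Chmp1a. Its log2 fold change was 0.71 (limma adjusted p = 0.866), against 0.51 for Dpep1. The 2 annotated genes do not overlap and share 0 exon bases, and why they varied alike was not tested.

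The genes most like the remaining members were Taf6 for Gsn (r of 0.93), Kcnk2 for Serpinf1 (0.91) and Ppp2r5d for Clec3b (0.86), each as the highest of 2599 values and with no test. Without the 2 libraries farthest from the median of the paired gene, r was 0.80 for Taf6, 0.89 for Kcnk2 and 0.59 for Ppp2r5d.

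**Figure D4:**
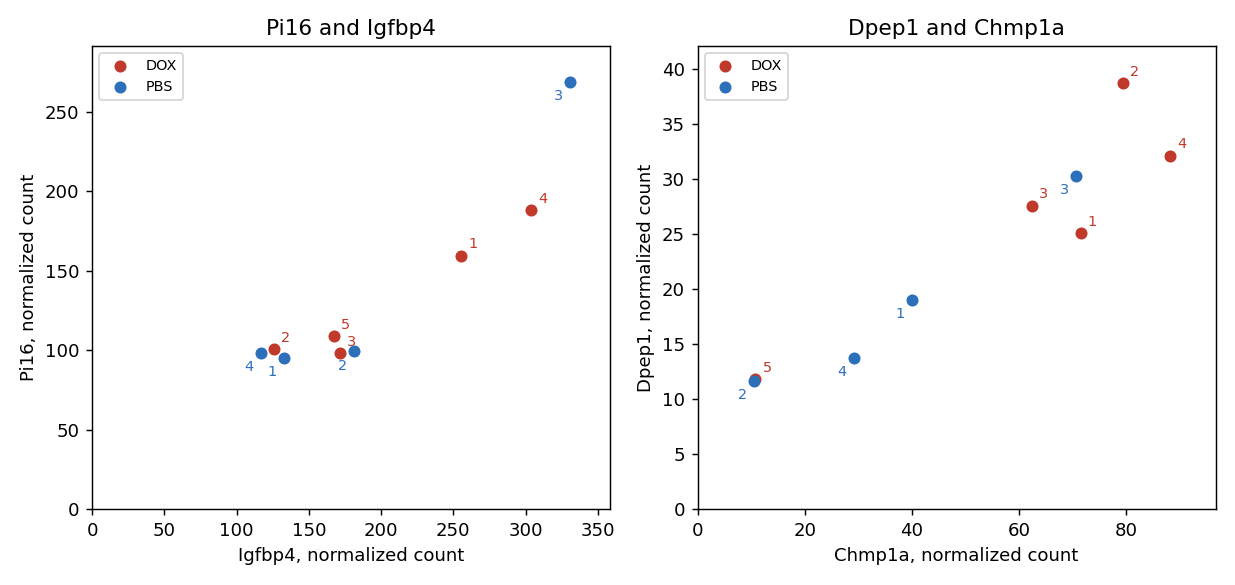
Normalized counts of Pi16 against Igfbp4 (left) and of Dpep1 against Chmp1a (right) in the 9 libraries, with DOX and PBS in separate colors and points numbered by replicate. Pi16 and Igfbp4 are both highest in PBS replicate 3, and Dpep1 and Chmp1a are both lowest in PBS replicate 2 and DOX replicate 5.

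Other genes of adventitial fibroblasts gave no called gene either. Of 22 listed, 10 were tested, and 6 of these were fitted higher in DOX and 4 lower (median log2 fold change 0.27). Without PBS replicate 4 the count was 4 higher and the median was -0.084. Over all tested genes 49.4% were fitted higher in DOX with all libraries and 50.7% without PBS replicate 4, which holds beside each list below. Pcolce2, which encodes an enhancer of procollagen processing, averaged 26.0 ± 8.55 in DOX and 13.1 ± 5.35 in PBS, with a log2 fold change of 0.96 (limma adjusted p = 0.763). In DOX, 4 of 5 libraries lay above every PBS library, and the share of all tested genes with such an order was not counted. Aebp1, which encodes a collagen-binding matrix protein, averaged 80.0 ± 30.7 in DOX and 48.4 ± 16.9 in PBS (0.68, adjusted p = 0.775). On the lower side stood Has1, a hyaluronan synthase (-1.05, adjusted p = 0.875), and Fbn1, the microfibril protein fibrillin (-0.98, adjusted p = 0.825). Of the 12 untested genes of this list, Ly6a was the most read with 79 reads and Cd55 the least with 3. Genes of alveolar fibroblasts, the sister population, had 3 of 12 members tested, all fitted higher in DOX, with a median log2 fold change of 0.17. Without PBS replicate 4 it was 2 of the 3, with a median of 0.26, and Slc7a10, an amino acid transporter, stood at -0.26 against 0.075 with all libraries. Of these Inmt, a methyltransferase gene, averaged 165 ± 54.3 in DOX and 112 ± 18.2 in PBS (0.52, adjusted p = 0.775). Of the 12 general fibroblast markers 10 were tested, 3 of them fitted higher in DOX (median -0.081) and none without PBS replicate 4 (median -0.46). The member of that list with the highest values, Col1a1, a collagen chain, averaged 1400 ± 239 in DOX and 1795 ± 550 in PBS (-0.31, adjusted p = 0.853). Its log2 fold change without PBS replicate 4 was -0.56 (interval -0.98 to -0.14, limma p of 0.0128 before and 0.461 after adjustment).

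Relatives of gelsolin had 0 to 366 reads over the 9 libraries. Of 7 other genes of the superfamily 2 were tested, neither called: Flii, the flightless homolog, averaged 34.9 ± 16.0 in DOX and 41.2 ± 9.48 in PBS (log2 fold change -0.32), and Vil1, villin of epithelial microvilli, 17.3 ± 11.0 in DOX and 13.5 ± 5.36 in PBS (0.21, and 0.084 without PBS replicate 4). Capg had 72 reads, Vill 20, Svil 8 and Scin 1, and Avil had none. Of 17 genes of actin assembly and turnover 8 were tested, of which 2 were fitted higher in DOX and 6 lower (median -0.089), and 5 higher without PBS replicate 4 (median 0.043). The shares of all tested genes fitted higher were 49.4% and 50.7%. Wdr1, a cofactor of cofilin in actin disassembly, had the highest of these values at 1.30 (adjusted p = 0.775), with 30.6 ± 20.9 in DOX and 13.7 ± 11.3 in PBS. Cfl1, cofilin itself, averaged 121 ± 50.0 in DOX and 144 ± 40.5 in PBS (-0.30, adjusted p = 0.898, and -0.16 without PBS replicate 4).

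The families of the other members were mostly too low to test. None of 8 relatives of Dpp4 was tested, and Fap, the fibroblast activation protein, had no read in any library, while Dpp8 had 30 reads and Dpp9 had 24. Dpep2 and Dpep3, the other membrane dipeptidases, had no read. Among the sialomucins related to Cd34, Podxl2 averaged 14.5 ± 8.86 in DOX and 22.3 ± 11.2 in PBS (log2 fold change -0.89, adjusted p = 0.862). In the CAP superfamily of Pi16 only Crispld2, a secreted protein, was tested, at 170 ± 41.1 in DOX and 195 ± 109 in PBS (-0.037, adjusted p = 0.988). Its log2 fold change without PBS replicate 4 was -0.45. PBS replicate 3 was again its highest PBS library, at 337.

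Of the genes around tetranectin and plasminogen, Plau, the urokinase gene, averaged 33.9 ± 12.0 in DOX and 31.2 ± 9.61 in PBS (0.079, adjusted p = 0.985). Plg itself had no read. Of 6 other serpins 4 were tested. Serpina3n, an acute phase serpin, had 45.5, 34.8, 11.2, 51.5 and 40.0 normalized counts in DOX replicates 1 to 5, against 8.99, 10.6, 12.6 and 12.2 in PBS replicates 1 to 4. All DOX libraries but replicate 3 lay above every PBS library, and the share of all tested genes with such an order was not counted. Its log2 fold change was 1.49 (limma p of 0.0102 before and 0.662 after adjustment) and 1.54 without PBS replicate 4. Serpinh1, the collagen chaperone, averaged 41.1 ± 19.3 in DOX and 69.2 ± 19.7 in PBS (-0.84, adjusted p = 0.761), and Serping1, the complement C1 inhibitor, 104 ± 27.7 in DOX and 97.8 ± 31.8 in PBS (0.12, adjusted p = 0.977, and -0.14 without PBS replicate 4).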

How the data were processed

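Reads of the 9 libraries (5 DOX, 4 PBS) were mapped by the authors with STAR to mm10 and counted per gene with HTSeq, tool versions not stated. The signal deposited for a gene is its count divided by a library size factor: 100% of values were whole multiples of 1 step (tolerance 1e-06), which gave back the reads. Reads were not stated to be collapsed by molecular tags, so counting errors and limits cover counting only. The 119 repeated symbols were summed. Chi-square values of 9.12 to 54.2 per degree of freedom left no 2 libraries of the same group within sampling noise of each other.

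Because normalized values are not counts, the test reported is limma 3.58.1 (R 4.3.3, trended variance, no covariate) on log2(value + 1). It covered the 2604 genes that reached 10 in 4 libraries. The added 1 shrinks the fold change of low genes: Clec3b was -0.68 with 0.5 added and -0.40 with 5. Count-based fits of Clec3b gave smaller changes still. edgeR 4.0.16, DESeq2 1.42.0 and voom on recovered reads, other filters, pseudocounts and scalings, a replicate block and each library left out were alternatives. Scripts used Python 3.11.15 and were tested on simulated data.

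Members and gene lists were chosen with earlier results of these data known. Named genes were the members, in each list up to 4 tested genes of highest mean and up to 2 of lowest p, the gene most correlated with each tested member, and genes overlapping a member or ending within 2000 bases. Other genes named from a list (Has1, Fbn1, and untested ones with their reads) were chosen after their values were seen. Coordinates are from GENCODE M21. Not all genes that this rule names are described, and 1 gene is not reported here.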

Additional observations from a re-analysis of the deposited data

Results flagged for a closer look

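For each member the highest and lowest library of each group were set against the rest of the group, which made 14 groups, and chance marks about 1 in 20. Of these 2 were marked, both for PBS replicate 3. Pi16 stood at 268.849 normalized counts there (213 reads), with the other PBS libraries at 94.9 to 99.2 and the DOX libraries at 98.1 to 188. Dpp4 stood at 1.2622 there, which is 1 read, with 0 in the other PBS libraries and 0 to 1.86 in the DOX libraries. With 0 in the other PBS libraries any single read would be marked, so the mark for Dpp4 carries no weight and the chance rate does not apply to it.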

How the results depend on the processing

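Without a filter 3 of 17428 genes passed limma (CT010467.1, Gm17300 and Gm20721, named after their values were seen; 459 at an unadjusted p under 0.05), none of them a member, and 0 genes passed under every other setting run. Pi16 had no stable direction: its log2 fold change was -0.10 with edgeR, -0.090 with DESeq2, -0.12 when scaled to total reads and -0.026 without PBS replicate 4 and DOX replicate 2 together, and -0.13 to 0.37 with 1 library left out. Serpinf1 ranged from -0.039 to 0.46 with 1 library left out, Clec3b from -0.98 to -0.093, Dpep1 from 0.32 to 0.77 and Gsn from 0.46 to 0.75. On recovered reads Clec3b was -0.29 with edgeR, -0.27 with DESeq2 and -0.081 with voom. Gsn stayed between 0.42 and 0.82 over 21 alternatives, with adjusted p of 0.662 to 0.986. It was 0.58 (limma p before adjustment 0.0546) without PBS replicates 3 and 4 together, a setting chosen after seeing the data. Scaling to the general fibroblast markers moved the median of all tested genes by 0.19 and Gsn to 0.82, and gave 110 genes higher and 11 lower in DOX at an unadjusted p under 0.05, against 79 and 83. The sum used for that scaling was mostly Col1a1, so that it is largely a scaling to a single gene. Scaling to total reads moved the median by -0.13 and Gsn to 0.48 (limma p before adjustment 0.0737). It gave 44 genes higher and 123 lower, and voom gave 56 and 104. Relative to that median, Gsn was 0.64 and 0.62. With the replicate number as a block 0 genes were called, 154 had an unadjusted p under 0.05 and Gsn was 0.71. Same-numbered DOX and PBS libraries correlated at 0.021 to 0.066 and differently numbered ones at -0.080 to 0.036. The labels do not state pairs, and the numbers were not taken as pairs. Depth limits Dpp4 and Cd34, which had 4 and 36 reads, and Clec3b in DOX replicate 2, with 1 read.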
